A study of Danio rerio with 55 samples.

Results

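Polycomb repression rests on a pair of enzyme complexes. PRC2, through its catalytic subunit Ezh2, trimethylates histone H3 at lysine 27 (H3K27me3), and the CBX subunits of canonical PRC1 bind that mark. Rnf2 (also called RING1B) is the E3 ligase of PRC1 that places ubiquitin on histone H2A, and variant PRC1 complexes that carry no CBX subunit are known from mammalian cells to bind chromatin without H3K27me3. The comparison described here asks where Rnf2 was bound in zebrafish embryos that lacked Ezh2, set against wild type.

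Rnf2 was profiled by ChIP-seq in whole embryos at 24 hours post-fertilization (hpf), with 2 MZezh2-/- replicates and 2 wild-type replicates. The members are all peaks of these 4 lists, 21504 of the 121244 peaks in the 18 ChIP-seq lists of the series, chosen by antibody and age alone. MZezh2-/- embryos carried the nonsense allele ezh2 hu5670, with a premature stop in the part encoding the SET domain, and lacked both the maternal and the zygotic Ezh2 because they came from crosses of fish whose germ cells had been replaced by ezh2 mutant ones. Wild-type embryos came from crosses of fish that received wild-type germ cells in the same procedure. Both genotypes were of a TU/TLF mixed background, the embryos were pooled and freed of yolk, and all cell types of the embryo were in the chromatin, so that a weaker peak and a peak in fewer cells cannot be told apart. One antibody (RING1B, Cell Signaling 5694S) was used throughout. A single input, from wild-type embryos of strain AB, served as the control for every list, so that no mutant input stands behind the mutant peaks. The peak names in the lists mark replicate 1 of both genotypes as called from merged alignment files and replicate 2 of both as belonging to another set of files, so that values are given within a replicate number where this matters. The names do not say which files were merged. The paper describes the replicates as independent biological ones, which the lists alone cannot show.

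Each list holds broad regions with a width, a fold enrichment over input at the region and a -log10 q. Sequencing depth is not part of the lists, and depth changes how many weak regions pass the caller's threshold. The MZezh2-/- lists held 656 peaks in replicate 1 and 348 in replicate 2, against 19509 and 991 in the wild-type replicates. The long list was wild-type replicate 1, while the mutant lists lay much closer to each other. At the same fold enrichment, between 5 and 6, the median -log10 p was 10.0 in MZezh2-/- replicate 1 and 7.98 in MZezh2-/- replicate 2, against 11.5 in wild-type replicate 1 and 7.75 in wild-type replicate 2. In both genotypes replicate 1 therefore gave the higher -log10 p for a given enrichment, which is a measure of the reads behind a region, and the genotypes lay closer to each other within a replicate number than the replicate numbers did to each other.

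The peaks differed in shape as well as in number. MZezh2-/- peaks had a median width of 271 bp (replicate 1) and 287.5 bp (replicate 2), against 294 and 1307 bp for wild-type peaks. The widest peak measured 4933 and 2926 bp in MZezh2-/-, against 83901 and 46094 bp in wild type. Peaks wider than 5 kb were therefore listed in both wild-type replicates and in neither mutant one. Median fold enrichment was 4.09 and 5.25 in the MZezh2-/- replicates, against 3.74 and 5.22 in the wild-type replicates, and so did not set the genotypes apart.

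**Figure D1:**
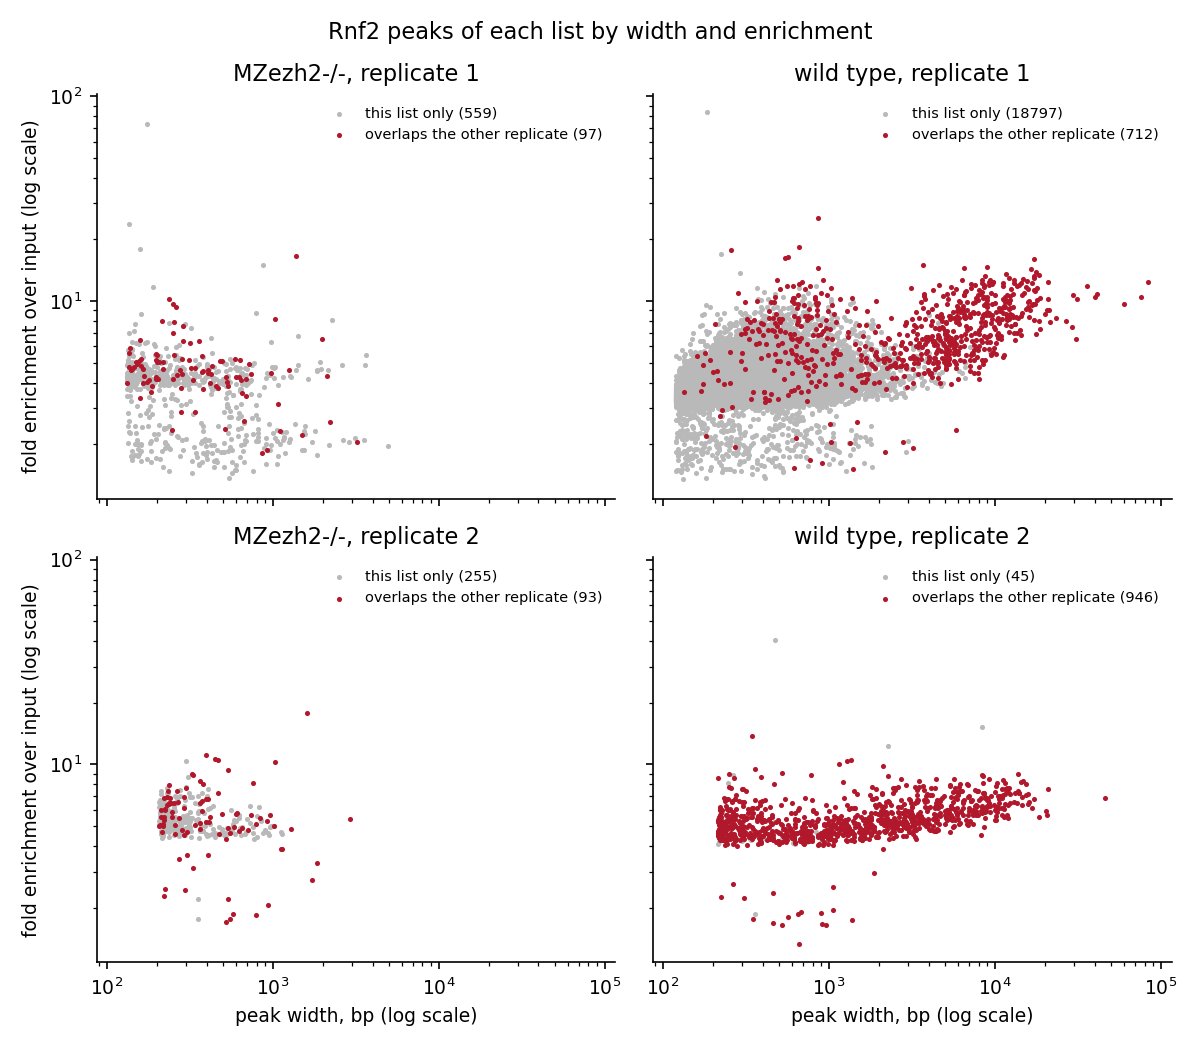
Every Rnf2 peak of the 4 lists by its width in bp and its fold enrichment over input (both axes logarithmic), with MZezh2-/- lists on the left and wild-type lists on the right; red points overlap a peak of the other replicate of that genotype and grey points do not, with their numbers in each panel. The arm of wide and enriched red points in both wild-type panels, up to 83901 bp, has no counterpart in the MZezh2-/- panels, where no peak is wider than 4933 bp.

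The excess of peaks in wild-type replicate 1 was made of narrow and weakly enriched regions. Of its 19509 peaks, 712 (3.65%) overlapped a peak of replicate 2, with a median width of 4376 bp, a median enrichment of 6.87 and a median -log10 q of 15.3. The other 18797 had medians of 284 bp, 3.71-fold and 3.68. The 712 shared peaks nevertheless held 35.8% of all bases listed in replicate 1. In the opposite direction, 946 of the 991 peaks of replicate 2 (95.5%) overlapped replicate 1, with a median width of 1426.5 bp, against 336 bp for the 45 that did not. The short list was therefore almost entirely inside the long one.

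Whether a peak of wild-type replicate 1 was found again in replicate 2 followed its width closely. Of the peaks below 300 bp, 0.232% were found again (95% Wilson interval 0.154 to 0.347%). The share was 7.00% from 1000 to 2000 bp (5.50 to 8.87%), 42.3% from 2000 to 4000 bp (35.9 to 48.9%), 88.5% from 4000 to 8000 bp (83.5 to 92.1%) and 99.5% from 8000 bp upward (184 of 185 peaks; 97.0 to 99.9%). By enrichment, the share was 0.275% from 3- to 4-fold (0.196 to 0.386%), 23.9% from 6- to 8-fold (21.1 to 26.9%) and 93.3% at 12-fold or more (42 of 45 peaks; 82.1 to 97.7%). These intervals cover the counting of peaks only. When the list of replicate 1 was cut to its 991 widest peaks, the length of the other list, 509 of them (51.4%) were in replicate 2, and the 991 most enriched gave 428 (43.2%).

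**Figure D2:**
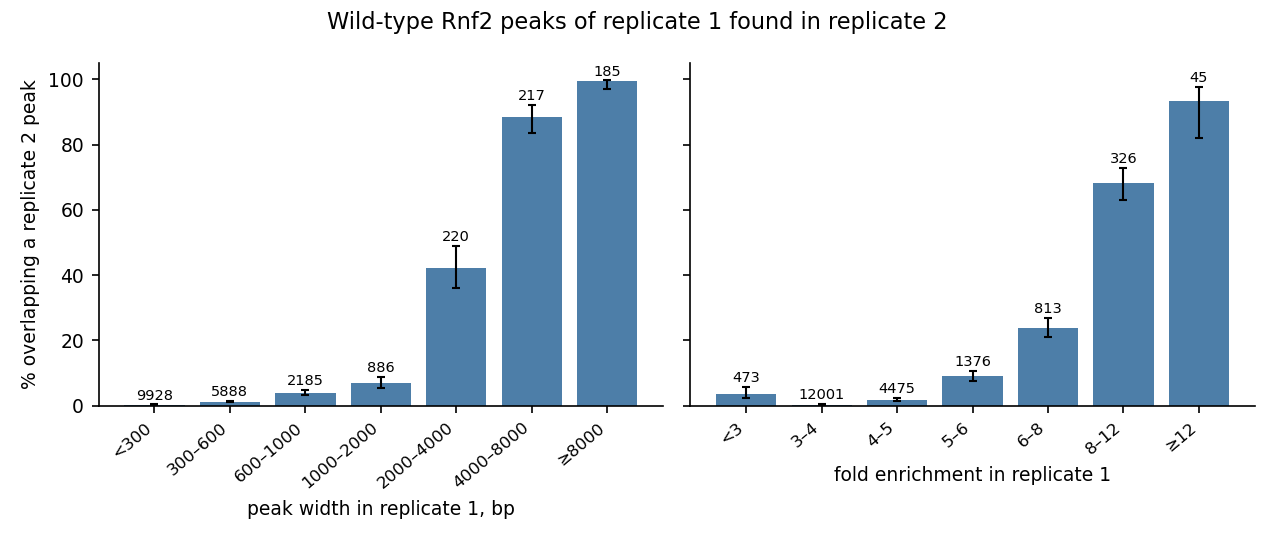
Share of the wild-type Rnf2 peaks of replicate 1 that overlap a peak of wild-type replicate 2 (y axis, %), by width in bp (left) and by fold enrichment (right) in replicate 1. Bars are shares, whiskers 95% Wilson intervals and numbers the peaks in each class; the share is 0.232% below 300 bp and 99.5% from 8000 bp upward.

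Enrichment alone picked out another kind of region. At 6-fold or more, 458 peaks of wild-type replicate 1 were shared with replicate 2 and 726 were not. The shared ones had a median width of 5812 bp and 77.5% carried a PRC2 mark, here meaning Ezh2 or H3K27me3 listed in both wild-type replicates of that antibody. The unshared ones had a median width of 449 bp, and 8.95% carried such a peak. Only 26 peaks of 4000 bp or more were missed by replicate 2, and 21 of these 26 carried a PRC2 mark. Their median enrichment was 4.84, against 7.94 for the 376 wide peaks found in both, all of which carried one. The wild-type Ezh2 lists behind this mark reached down to a -log10 q of 1.01 and 1.02, the H3K27me3 lists to 2.02.

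PRC2 marks went with the shared peaks in both wild-type lists. Such a mark lay on 79.2% of the shared peaks of replicate 1 (76.1 to 82.0%), against 8.19% of those in replicate 1 only (7.80 to 8.59%). In replicate 2 the shares were 83.4% for shared peaks (80.9 to 85.6%) and 17.8% for the 45 others (9.29 to 31.3%). H3K4me3, the mark of active and poised promoters, did not follow that split. A peak listed in all 3 wild-type H3K4me3 replicates lay on 19.8% of the shared peaks of replicate 1 and on 25.1% of those in replicate 1 only. Neither a PRC2 mark nor H3K4me3 was listed on 68.3% of the peaks in replicate 1 only, against 19.7% of the shared ones. An overlap of 1 bp counted, and the shared peaks were wider. Over all peaks of replicate 1, a PRC2 mark lay on 4.57% below 300 bp and on 99.5% from 8000 bp upward. The shares of shared and unshared peaks were not matched for width.

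The caller cut the same domains into more pieces in replicate 2. Of the 184 shared peaks of wild-type replicate 1 that were 8000 bp or wider, 93 (50.5%) held more than 1 peak of replicate 2, and 1 of them held 14. Of the 181 shared peaks below 1000 bp, 0 did so. Peak numbers therefore count pieces of domains as well as domains, and widths and covered bases were used beside them.

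In the mutant lists, shared and unshared peaks differed less in width than in wild-type replicate 1. Of the peaks of MZezh2-/- replicate 1, 97 of 656 (14.8%; 12.3 to 17.7%) overlapped replicate 2, and 93 of 348 peaks of MZezh2-/- replicate 2 (26.7%; 22.3 to 31.6%) overlapped replicate 1. The shared peaks were somewhat wider than the others, at 289 against 265 bp in replicate 1 and 366 against 271 bp in replicate 2 (medians). Their median enrichment was 4.59 against 4.01 in replicate 1 and 5.48 against 5.21 in replicate 2. By the same count, 95.5% of the shorter wild-type list was shared, against 26.7% of the shorter mutant list. The partner lists were of unlike length, however, with 19509 peaks in wild-type replicate 1 and 656 in MZezh2-/- replicate 1. Of the peaks of MZezh2-/- replicate 2, 94.3% overlapped wild-type replicate 1, so these 2 shares cannot be compared directly. A wild-type PRC2 mark went with the shared mutant peaks too. It lay on 55.7% of them against 37.9% of the others in MZezh2-/- replicate 1, and on 52.7 against 27.1% in MZezh2-/- replicate 2. Many of these peaks were also listed with the Ezh2 or H3K27me3 antibody in the mutant. In replicate 1 this held for 39.2% of the shared and 54.0% of the other peaks, in replicate 2 for 37.6 and 2.75%. The shares with a wild-type mark were not separated by this.

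For the comparison of genotypes, peaks with gaps below 1 kb were joined within a replicate and the stretches common to the 2 replicates were kept, which gave 93 intervals in MZezh2-/- embryos and 865 in wild-type embryos. The MZezh2-/- intervals covered 34903 bp with a median width of 239 bp and a widest interval of 1969 bp, against 2769998 bp, 1564 bp and 52853 bp in wild type. In wild type, the 228 intervals of 4000 bp or more (26.4%) held 72.1% of the bases, whereas 0 of the 93 MZezh2-/- intervals reached that width. The wild-type intervals also lay close together. When intervals less than 100 kb apart were counted as 1 group, 373 of the 865 fell into 88 groups of at least 3, the largest with 21, against 6 of the 93 mutant intervals in 2 groups. Such grouping rises with the number of intervals and with domains cut into pieces. The genotypes were not matched for number, so this is no measure of a difference in clustering.

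Before any intersection, the joined Rnf2 peaks covered 339143 and 138371 bp (MZezh2-/-), against 12381399 and 2812291 bp (wild type). The geometric mean of the mutant replicates was 3.67% of that of wild type, and the groups did not overlap. The value was 1.75% without wild-type replicate 2, 2.34% without MZezh2-/- replicate 1, 5.75% without MZezh2-/- replicate 2 and 7.70% without wild-type replicate 1. An exact permutation test on log10 bases gave a two-sided p = 0.333, the smallest that this test allows with 2 against 2 replicates. Within replicate 2 alone, where the wild-type list was the short one, the mutant still covered fewer bases and had 348 peaks against 991.

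All 4 Rnf2 lists together held 18540 merged regions. Of these, 501 were in both wild-type lists and in no MZezh2-/- list, which is 2.70% of the regions, and 5 were in both MZezh2-/- lists and in no wild-type list, which is 0.0270%. The 501 had a median width of 5440 bp and 83.2% carried a PRC2 mark. All 5 regions of the reverse kind also held a mutant Ezh2 or H3K27me3 peak. Regions in wild-type replicate 1 alone made up 17200 of the 18540 (92.8%), with a median width of 284 bp. Only 100 of the 804 regions with a mutant peak were in neither wild-type list. This rests on the long list: 81.1 and 94.3% of the peaks of MZezh2-/- replicates 1 and 2 overlapped wild-type replicate 1, while 15.5 and 40.2% overlapped wild-type replicate 2.

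The 865 wild-type intervals were next read in every list. MZezh2-/- Rnf2 peaks covered 1.35 and 1.98% of their bases in the 2 replicates, against 99.5 and 97.3% for the wild-type Rnf2 lists from which the intervals were made. H3K27me3 peaks covered 0.413 and 0.643% in the MZezh2-/- replicates, against 97.5 and 95.3% in wild type. Ezh2 peaks covered 0.0497 and 0.712% in the MZezh2-/- replicates, against 82.9 and 16.2% in wild type. The wild-type Ezh2 replicates thus differed widely over the same bases, and the genotypes still did not overlap. The Ezh2 lists did not reach down to the same q. The lowest -log10 q was 2.04 in MZezh2-/- replicate 1 and 1.01 in MZezh2-/- replicate 2. It was 1.01 and 1.02 in wild-type replicates 1 and 2. The 0.0497% therefore comes from a list that stopped at a stricter q. Across the intervals, fold enrichment of Rnf2 in wild-type replicates 1 and 2 correlated with Spearman's rho = 0.611 over 864 intervals, and Rnf2 with H3K27me3 with rho = 0.401 in replicate 1 and 0.449 in replicate 2, over 717 and 712 intervals, all lists sharing one input.

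**Figure D3:**
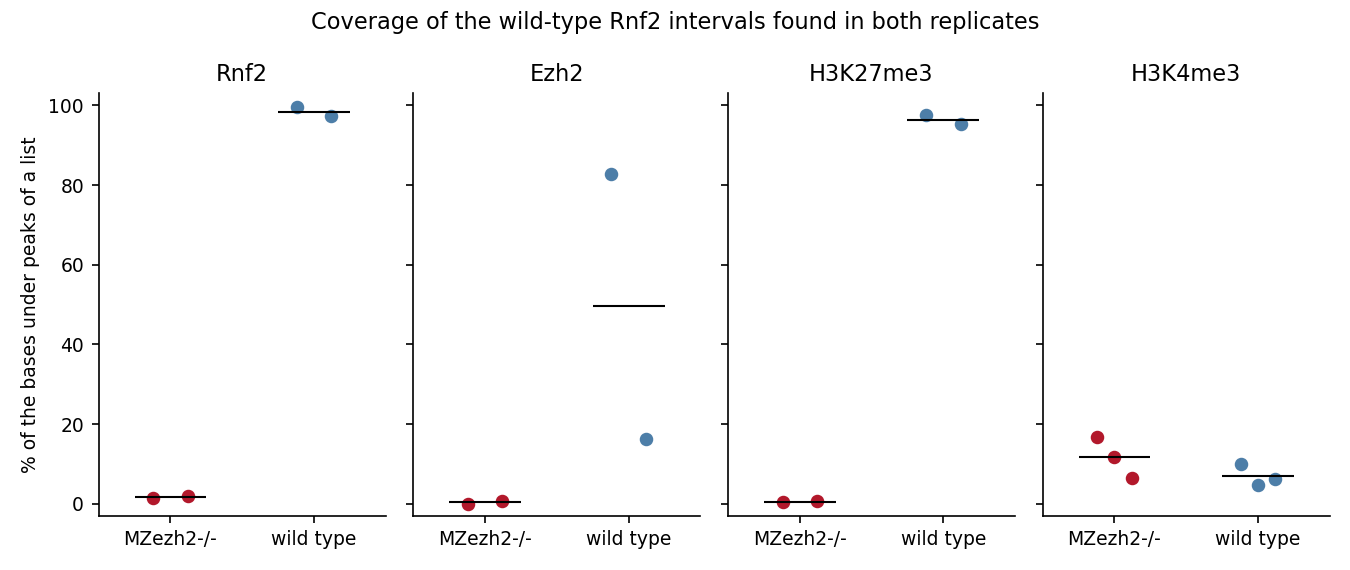
Percentage of the bases of the 865 wild-type Rnf2 intervals that lie under the peaks of each list (y axis), with 1 point per replicate, MZezh2-/- left and wild type right for each antibody, and the mean as a line. Rnf2 peaks of MZezh2-/- embryos cover 1.35 and 1.98% of these bases. The intervals were made from the wild-type Rnf2 lists, so the wild-type Rnf2 points are high by construction. Of the other antibodies, only H3K4me3 has points of the genotypes that overlap.

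A mutant Rnf2 peak was present somewhere in 164 of the 865 wild-type intervals (19.0%; 16.5 to 21.7%), in 91 by replicate 1, in 131 by replicate 2 and in 58 by both. These intervals had the higher median wild-type enrichment. It was 9.21 in replicate 1 and 5.52 in replicate 2 where both mutant lists had a peak. The medians were 8.26 and 5.55 where 1 mutant list had a peak, against 6.85 and 5.22 where neither had one. By wild-type replicate 2, the share with a mutant peak was 18.1% below 5-fold, 16.1% from 5- to 6-fold and 19.1% from 6- to 8-fold. It was 53.1% at 8-fold or more. In intervals with a PRC2 mark, a mutant peak, where listed, spanned a median of 40.9% of the interval in MZezh2-/- replicate 1 and 11.9% in MZezh2-/- replicate 2. Within replicate 1, the mutant peak was less enriched than the wild-type peak in 70 of 91 intervals, with a median ratio of mutant to wild type of 0.597. Within replicate 2, it was less enriched in 60 of 131, with a median ratio of 1.02. The replicates thus differed in this ratio. It sets the value of a whole mutant peak, often much narrower than the interval, against that of a whole wild-type peak. The same bases are therefore not compared, and only peaks that passed the caller in the mutant enter these ratios.

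Wild-type intervals without a PRC2 mark kept a mutant peak more often than those with one. Of the 156 intervals without such a mark, 67 (42.9%; 35.4 to 50.8%) held a MZezh2-/- Rnf2 peak, against 97 of the 709 with one (13.7%; 11.3 to 16.4%). Each mutant list gave the same order, with 21.8 against 8.04% in replicate 1 and 34.0 against 11.0% in replicate 2. The intervals without a mark were narrow, with a median of 268.5 bp, against 2258 bp for those with one. Among intervals below 500 bp only, the shares were 44.1% (64 of 145) and 16.2% (16 of 99). Wild-type enrichment did not set these classes apart, with medians of 7.18 without and 7.01 with a mark in replicate 1, and 5.15 and 5.30 in replicate 2. These shares describe the intervals listed and were not tested between samples.

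The shares also differed by wild-type enrichment. Among intervals without a PRC2 mark, 12 of 48 held a mutant peak below 6-fold in wild-type replicate 1, 15 of 48 (31.2%) from 6- to 8-fold, 21 of 38 (55.3%) from 8- to 10-fold and 19 of 22 (86.4%; 66.7 to 95.3%) at 10-fold or more. Among intervals with a mark, the counts were 26 of 225 (11.6%), 13 of 205 (6.34%), 24 of 141 and 34 of 137 (24.8%; 18.3 to 32.7%). With the intervals grouped by wild-type replicate 2 instead, the unmarked counts were 22 of 70 below 5-fold, 23 of 53 from 5- to 6-fold, 15 of 25 from 6- to 8-fold and 7 of 8 at 8-fold or more, and the marked ones 38 of 262, 24 of 239, 25 of 184 and 10 of 24. Unmarked intervals had the higher share in every class of both groupings.

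**Figure D4:**
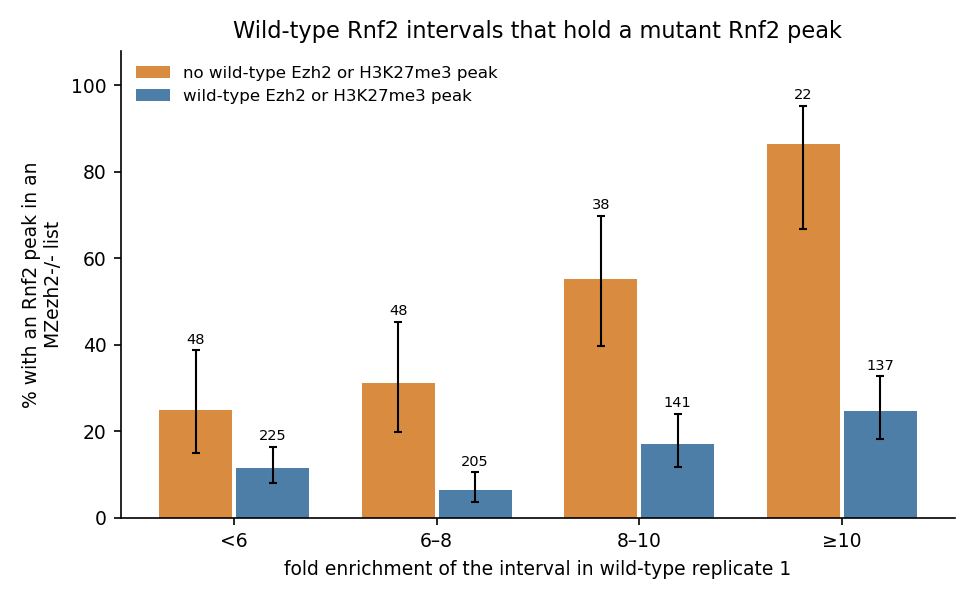
Share of wild-type Rnf2 intervals that hold an Rnf2 peak in at least 1 MZezh2-/- list (y axis, %), by fold enrichment of the interval in wild-type replicate 1 (x axis), for intervals without and with a wild-type Ezh2 or H3K27me3 peak. Bars are shares, whiskers 95% Wilson intervals and numbers the intervals in each class; at 10-fold or more the shares are 86.4% without and 24.8% with a PRC2 mark.

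Many mutant Rnf2 peaks lay on peaks that the Ezh2 and H3K27me3 antibodies also gave in the mutant. Of the peaks of MZezh2-/- replicate 1, 340 of 656 (51.8%) overlapped a peak of the Ezh2 or H3K27me3 antibody in a mutant replicate, against 42 of 348 (12.1%) in replicate 2. In replicate 1, the 340 had a median enrichment of 2.78 and 53.2% of them lay below 3-fold, while the 316 others had a median of 4.23 and 2.53% below 3-fold. In replicate 2, the medians were 4.91 for the 42 and 5.29 for the 306. In the wild-type lists, 591 of 19509 peaks of replicate 1 (3.03%) and 42 of 991 of replicate 2 (4.24%) lay on such a mutant peak. By number, these peaks were thus no fewer in wild type, and the shares depend on the length of the list. Among the shared wild-type peaks, 41 of the 712 peaks of replicate 1 (5.76%) lay on a mutant Ezh2 or H3K27me3 peak. The MZezh2-/- Ezh2 lists held 21 and 699 peaks and the H3K27me3 lists 287 and 756. The Ezh2 list of 21 peaks stopped at a -log10 q of 2.04, and that of 699 at 1.01. Peaks called on input alone, which the authors removed in their own sets, are still in the lists used here, and the part they play in these overlaps was not tested.

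The 93 intervals found in both mutant replicates divided along the same line. Of these, 27 were listed in MZezh2-/- embryos with all of the Ezh2, H3K27me3 and H3K4me3 antibodies, and 43 with none of them. Of the 59 without mutant Ezh2 or H3K27me3, all 59 overlapped wild-type replicate 1, at a median wild-type enrichment of 8.44, against 4.09 for the 30 of 34 with such company that did. A wild-type PRC2 mark lay on 28 of the 34 with such company and on 21 of the 59 without. Those without such company that lay on a wild-type interval of both replicates divided almost evenly, 19 without and 18 with a wild-type PRC2 mark. The 19 had a median width of 180 bp and median enrichments of 4.93 and 6.85 in MZezh2-/- replicates 1 and 2, against 10.3 and 6.03 in wild-type replicates 1 and 2. None of the 19 was listed with any other antibody in the mutant, and 0 of the 19 carried H3K4me3 in all 3 wild-type replicates.

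The most enriched mutant intervals show both kinds. The one with the highest mean enrichment, on chromosome 20 from 53391572 to 53392611 (GRCz10), had 16.5- and 10.3-fold in the MZezh2-/- replicates, against 10.4- and 10.0-fold in wild type, and was also listed with the Ezh2 antibody in both mutant replicates (6.76 and 5.79). On chromosome 1 from 51372091 to 51372346, Rnf2 had 7.86- and 10.5-fold in the MZezh2-/- replicates, against 18.3- and 13.8-fold in wild type, and no Ezh2, H3K27me3 or H3K4me3 list of either genotype had a peak. On chromosome 22 from 16962051 to 16962338, the values were 7.57- and 10.6-fold in MZezh2-/-, against 25.5- and 8.66-fold in wild type, with the only other peak being from Ezh2 in wild-type replicate 1 (4.31). Chromosome 4 from 18677221 to 18677596 (5.41 and 11.1 in MZezh2-/-, 11.6 and 10.5 in wild type) and chromosome 25 from 2070864 to 2071221 (6.40 and 9.45 in MZezh2-/-, 8.21 and 10.4 in wild type) were alike. At both, an Ezh2 peak of wild-type replicate 1 was the only other listing (3.64 and 3.77). These 4 intervals were listed with the Rnf2 antibody in all 4 lists and with H3K27me3 in none. The paper, which removed peaks called on input alone, placed its remaining mutant Rnf2 peaks in intergenic repeats. It regards them as most probably artefacts. Whether that holds for these 4 intervals was not tested.

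Other intervals among the 10 most enriched were also listed with the Ezh2 antibody in the mutant, and some of them in every list. That on chromosome 17 from 53292616 to 53292867 had 9.65- and 6.48-fold for Rnf2 in MZezh2-/-, against 17.7- and 5.56-fold in wild type, and all 18 lists had a peak there, with H3K27me3 at 15.5 and 17.3 in MZezh2-/-, against 12.2 and 12.9 in wild type. That on chromosome 2 from 56358470 to 56358731 was likewise in all 18 lists. On chromosome 24, from 13982932 to 13983166, Rnf2 reached 10.2- and 7.95-fold in MZezh2-/- and was in neither wild-type list, while the mutant Ezh2, H3K27me3 and H3K4me3 antibodies also gave peaks there (10.4 for Ezh2 in replicate 2). Chromosome 13, from 1134028 to 1134496, had 8.14- and 7.25-fold in MZezh2-/-, against 9.80- and 9.55-fold in wild type, with mutant Ezh2 peaks of 4.97 and 3.88. The single highest enrichment of any Rnf2 list lay in replicate 1 alone, on chromosome 13 from 40038790 to 40038964, with 72.9-fold in MZezh2-/- and 83.8-fold in wild type, and the Ezh2 antibody gave 27.2 and 31.8 there in the mutant replicates.

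The widest wild-type domain, on chromosome 23 from 35955688 to 36008540 (52853 bp), held the most enriched peak of MZezh2-/- replicate 2. Its Rnf2 peaks covered 339 and 1607 bp in the MZezh2-/- replicates, against 52853 and 51046 bp in wild type. The mutant stretch, from 35998452 to 35998790, lay in Rnf2 peaks of 4.70- and 17.9-fold in MZezh2-/-, against 12.4- and 6.89-fold in wild type. These values belong to whole peaks, up to 1607 bp wide in the mutant, while wild-type replicate 1 was listed over all 52853 bp. The genotypes are therefore not compared over the same bases. No mutant Ezh2 or H3K27me3 peak lay on the stretch, and H3K4me3 was listed there in all 3 mutant replicates (9.05, 6.65 and 4.60). Over the whole domain, H3K4me3 covered 18355, 15017 and 11690 bp in MZezh2-/-, against 10878, 6999 and 10631 bp in wild type. The share of all intervals with groups set apart in this way was not counted. Over all wild-type intervals together, the H3K4me3 coverage of the genotypes overlapped. Of the 9 next widest domains, from 16891 to 23391 bp, MZezh2-/- replicate 1 had Rnf2 in 1 (1005 bp) and replicate 2 in 4 (239 to 799 bp), and none had a mutant Ezh2 or H3K27me3 peak. Wild-type replicates 1 and 2 covered these 9 domains over at least 14924 bp each.

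Known Polycomb targets were read in the windows that the study displayed. The hoxab cluster, a run of homeobox genes that pattern the body axis, held 1 Rnf2 peak of 29723 bp on chromosome 16 from 21084173 to 21113895 in wild-type replicate 1, at 10.7-fold, and replicate 2 listed 7 peaks over that stretch, at 4.93- to 6.67-fold. A second peak from 21116832 to 21125436 (8.65-fold) lay beside it in replicate 1 and had 1 counterpart of 5352 bp at 4.66-fold in replicate 2. Both MZezh2-/- lists had 0 Rnf2 peaks in the window. At gsc, which encodes the homeobox protein Goosecoid of the organizer, the main wild-type peak lay on chromosome 17 from 19321865 to 19330482 in replicate 1 (11.9-fold) and was 6893 bp wide in replicate 2 (7.96-fold), and the MZezh2-/- lists again had 0 peaks.

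The window of tbx5a and tbx3a, T-box genes of heart and limb development, was the exception. Wild-type replicate 1 listed 12 Rnf2 peaks there, up to 13803 bp wide and 16.3-fold enriched, and replicate 2 listed 7, up to 11310 bp and 9.09-fold. The MZezh2-/- replicates listed 2 peaks (5.01- and 4.43-fold) and 3 peaks (5.21-, 4.99- and 5.16-fold), of 150 to 406 bp. A pair of positions on chromosome 5 was shared by the mutant replicates. That at 71505048 to 71505197 (5.01- and 5.21-fold in MZezh2-/-) lay in wild-type peaks of 14.7-fold in replicate 1 and 8.82-fold in replicate 2. That at 71539799 to 71539912 (4.43- and 4.99-fold in MZezh2-/-) lay in wild-type peaks of 8.28-fold in replicate 1 and 5.51-fold in replicate 2. The mutant peaks were thus less enriched than these wider wild-type peaks in both replicates at each position. The unshared peak of MZezh2-/- replicate 2, from 71565825 to 71566110, lay on a peak of 513 bp and 7.88-fold that was listed in wild-type replicate 1 and not in replicate 2. No mutant Ezh2 or H3K27me3 list had a peak in any of these windows.

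**Figure D5:**
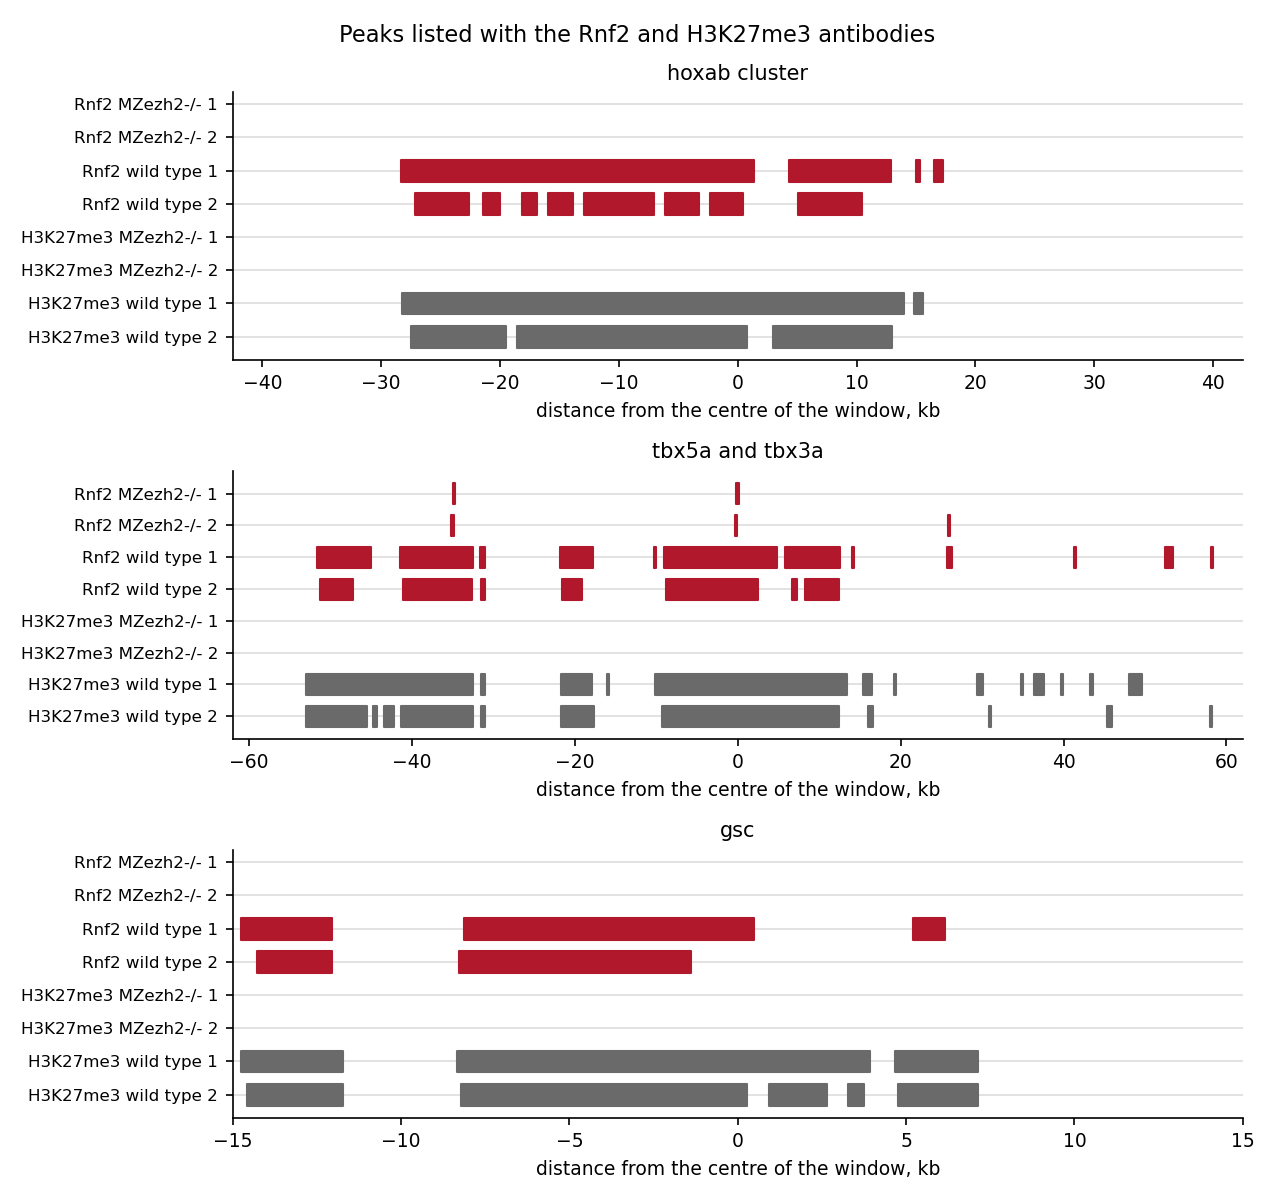
Peaks listed with the Rnf2 (red) and H3K27me3 (grey) antibodies in each replicate across the hoxab, tbx5a and tbx3a, and gsc windows, by distance from the centre of the window in kb; bars are drawn from start to end of each peak, with a minimum drawn width, MZezh2-/- rows above wild-type rows for each antibody. MZezh2-/- Rnf2 rows are empty at hoxab and gsc and hold 2 and 3 short peaks at tbx5a and tbx3a.

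H3K4me3 was listed on more of the wild-type Rnf2 intervals in the mutant, without clearing the spread between replicates. Of the 865 intervals, 338, 284 and 191 carried an H3K4me3 peak in the MZezh2-/- replicates, against 233, 151 and 165 in the wild-type replicates. H3K4me3 covered 16.7, 11.7 and 6.57% of the bases of the intervals in MZezh2-/-, against 9.94, 4.81 and 6.14% in wild type, with means of 11.7 ± 5.07% and 6.96 ± 2.66% (SD, n = 3 each). The values overlapped, and the exact permutation test gave a two-sided p = 0.2 where the smallest possible is 0.1. As a share of all bases in each H3K4me3 list, which takes the length of the list into account, the intervals held 3.09, 2.77 and 2.37% in MZezh2-/-, against 2.29, 1.38 and 1.93% in wild type. These did not overlap, and the exact permutation test gave its smallest possible two-sided p = 0.1.

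A few Rnf2 domains held H3K4me3 in every mutant list and in no wild-type list. Of all 17343 merged H3K4me3 regions, 43 (0.248%) were in all 3 MZezh2-/- lists and no wild-type list, and 11 (0.0634%) were in all 3 wild-type lists and no MZezh2-/- list. On wild-type Rnf2 intervals the numbers were 20 of 387 regions (5.17%; 3.37 to 7.85%) and 0 of 387 (upper Wilson bound 0.983%), against 23 of 16956 (0.136%) and 11 of 16956 elsewhere. The 20 Rnf2 intervals with H3K4me3 in all 3 mutant lists and no wild-type list were wide, with a median of 9582.5 bp, and all 20 carried a PRC2 mark in wild type, as did 82.0% of the 865 intervals and every one of 2000 bp or more. The gsc domain and the second widest domain, on chromosome 17 from 38286428 to 38309818, were among them. That domain held 3637, 2916 and 1420 bp of H3K4me3 in MZezh2-/-, against 0 in each wild-type list. A mutant Rnf2 peak lay in 2 of the 20. Of the 865 intervals, 199 were in more MZezh2-/- than wild-type H3K4me3 lists, 29 in fewer, and 500 in none of the 6. That count was not made over all H3K4me3 regions, so it is not shown to be particular to Rnf2 intervals. The H3K4me3 lists held 15968, 13996 and 10642 peaks in MZezh2-/-, against 14667, 12939 and 11487 in wild type.

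RNA-seq of whole embryos at 24 hpf, with 7 MZezh2-/- and 6 wild-type libraries, gave the transcripts of the complex itself. Counts on genes per library were 2736282 to 19407103 in MZezh2-/- and 6304827 to 23394029 in wild type. Levels of rnf2 were 60.7 to 93.9 CPM (counts scaled by library size, TMM; median 69.2) in MZezh2-/-, against 65.9 to 114 CPM (median 69.2) in wild type, and the ranges overlapped. The log2 fold change was -0.07 ± 0.17 (SE; edgeR quasi-likelihood test, adjusted p = 1). Levels of ezh2, which the nonsense allele does not remove from the counts by itself, were 34.9 to 124 CPM (median 48.3) in MZezh2-/-, against 124 to 216 CPM (median 179) in wild type. Its log2 fold change of -1.29 ± 0.31 did not pass (edgeR adjusted p = 0.124), and it passed with DESeq2 (adjusted p = 0.0105). Levels of ezh2 were 34.9 to 48.3 CPM in MZezh2-/- replicates 1 to 4 and 102 to 124 CPM in replicates 5 to 7. In wild type they were 124 to 146 CPM in replicates 1 to 3 and 211 to 216 CPM in replicates 4 to 6. The fit on genotype alone did not model this split, and its source was not tested.

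Of the PRC1 genes, 3 of 24 tested were higher in MZezh2-/- embryos and 0 lower, at an adjusted p below 0.05 and a change of at least 1 on the log2 scale, where 0.223% of all 18806 genes tested were higher and 0.101% lower. Of the 3, a pair encodes Bmi1, the PCGF subunit that partners Rnf2 in canonical PRC1, and carries 1 symbol in the gene table, so each is given by ID. BMI1 ENSDARG00000006010 had 159 to 213 CPM (median 196) in MZezh2-/-, against a median of 58.1 and at most 60.6 CPM in wild type (log2 fold change 1.81 ± 0.13, edgeR adjusted p = 1.16e-05). BMI1 ENSDARG00000013076 had 23.5 to 51.8 CPM in MZezh2-/-, against 8.52 to 19.0 CPM in wild type (1.36 ± 0.26, edgeR adjusted p = 0.0263), a call that was lost when any 1 of 7 libraries was left out (adjusted p up to 0.0783, without wild-type replicate 5). The third, CBX8 ENSDARG00000087327, a CBX subunit that binds H3K27me3, had 25.3 to 43.1 CPM in MZezh2-/-, against 8.67 to 16.1 CPM in wild type (1.52 ± 0.18, edgeR adjusted p = 0.000529). The groups overlapped for none of these 3 genes. The other CBX8 entry of the gene table, ENSDARG00000098771, did not pass (log2 fold change 0.26 ± 0.27). It had 2.18 to 8.17 CPM in MZezh2-/-, against 3.01 to 5.18 CPM in wild type. The median log2 fold change of the 24 PRC1 genes was -0.08, against -0.01 for all genes, and 0 of 12 PRC2 genes passed by edgeR.

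The genes of the displayed windows were not alike. Transcripts of hoxa9b were higher in MZezh2-/- (median 81.2 CPM, lowest 52.7) than in wild type (median 17.5 CPM, highest 20.9; log2 fold change 2.1 ± 0.17, edgeR adjusted p = 1.84e-05). The change was 1.78 ± 0.20 for tbx5a, listed as TBX5 in the gene table (16.5 to 28.4 CPM in MZezh2-/-, 5.02 to 8.70 CPM in wild type; edgeR adjusted p = 0.000384), and 2.51 ± 0.26 for gsc (2.60 to 5.99 CPM in MZezh2-/-, 0.525 to 1.13 CPM in wild type; edgeR adjusted p = 0.000227). In the same windows, hoxa10b (0.61 ± 0.18), hoxa13b (0.48 ± 0.23), hoxa2b (0.24 ± 0.26) and tbx3a (0.28 ± 0.22) did not pass, with edgeR adjusted p of 0.255, 0.714, 1 and 0.954. Of 5 comparison genes, which were neighbours of these genes in the study's views or its control genes, 0 passed. Over all genes tested, 0.223% were higher and 0.101% lower, so 0 of 5 does not set these genes apart. Peaks were not joined to genes beyond these windows.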

How the data were processed

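The members and gene lists were chosen with earlier results of these data known. For ChIP-seq, the authors mapped to GRCz10, discarded duplicates and ambiguous alignments, and ran MACS2 2.1.1 in broad mode on each biological replicate. The deposited lists hold a score, a fold enrichment (a ratio to input), -log10 p and -log10 q per peak, are unmerged and give no depth. Peaks called on input alone were not removed here. For RNA-seq, the authors deposited raw counts per gene from STAR 2.5.2b, of which the unstranded column was used.

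Peaks with gaps below 1 kb were joined, and 1 bp of overlap counted as shared (Python 3.11.15, pandas 2.3.3, checked on simulated peaks). An interval was given the highest fold enrichment among the listed peaks that overlapped it, whatever their width. Intervals for shares are 95% Wilson intervals over peaks, which are not independent, and cover counting only. Permutation tests (numpy 2.4.6) were exact and two-sided, and Spearman's rho was taken with scipy 1.17.1. RNA was tested with edgeR 4.0.16 in R 4.3.3 (TMM, filterByExpr, genotype only, Benjamini-Hochberg over 18806 genes). On counts simulated for this comparison, 93.5% of 200 genes changed by 2 on the log2 scale were recovered, with 6 false calls. Reads on no gene, 36.3 to 69.0% of each library, stayed out of library sizes.

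Named were the 10 widest wild-type and the 10 most enriched mutant intervals found in both replicates, and the peaks of the displayed windows. Of the PRC1 and PRC2 genes, rnf2, ezh2, every called gene and the CBX8 entry that was not called were named. Windows were read from the study's browser views, on the chromosome with most wild-type H3K27me3 there. Alternatives were the merging distance, the overlap, q and enrichment thresholds and each replicate left out. For RNA they were also a replicate block, a library type set from sense-strand counts, DESeq2 1.42.0, RLE scaling and no filter.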

Additional observations from a re-analysis of the deposited data

How the results depend on the processing

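At a -log10 q of at least 5, 32 MZezh2-/- and 344 wild-type Rnf2 intervals were found in both replicates, against 93 and 865. With a single list in place of the intersection, the numbers ranged from 347 to 602 in MZezh2-/- embryos and from 909 to 18419 in wild type, and the wild-type share with a PRC2 mark from 18.8% (without wild-type replicate 2) to 80.7%. Merging distance, stricter overlap and enrichment of at least 4 gave 67 to 98 MZezh2-/- and 673 to 962 wild-type intervals. MZezh2-/- peaks covered fewer bases under each alternative run. The share of intervals without a PRC2 mark that held a mutant peak was 21.8 to 34.0% with 1 mutant list, alternatives chosen after seeing the data. With mutant Ezh2 or H3K27me3 intervals left out it was 40.9%, and with marks from any wild-type list 39.5%. The H3K4me3 difference over Rnf2 intervals stayed positive, at 2.17 to 7.22 percentage points when a replicate was left out.

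For RNA, 42 genes were higher and 19 lower in MZezh2-/- embryos. DESeq2 gave 77 and 59. With the replicate number as a replicate block, 58 were higher and 38 lower, and ezh2 passed (log2 fold change -1.55, adjusted p = 0.00783). The numbers are not shown to pair the libraries, since only 2 of 6 pairs correlated best with their own number (r from -0.0208 to 0.771). When a library was left out, 10 to 26 genes were lower and 33 to 44 higher. Of 234 alternatives of the named genes, without CBX8 ENSDARG00000098771, 224 kept their side of the threshold. The others were BMI1 ENSDARG00000013076 in 7 fits, ezh2 in 2, and hoxa10b with library type as a covariate (0.65, adjusted p = 0.0198). That type was set from a share of sense-strand counts above 5%, not from a kit label, and held 2 MZezh2-/- libraries and 1 wild-type library. The paper's methods describe another kit and sequencer for 2 samples of each genotype, so the covariate does not match that split, which was not modelled. Depth was not analysed for the peak lists, so a peak missing from a list may lie below the caller's threshold.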
